A study of Homo sapiens with 12 samples.

Results

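Glutamate and GABA are the main excitatory and inhibitory transmitters of the brain, and their receptors were followed here as targets of H3K27me3, trimethylation of lysine 27 of histone H3. The genes were taken by symbol: every autosomal gene named as a subunit of an ionotropic glutamate receptor (GRIA, GRID, GRIK, GRIN), a metabotropic glutamate receptor (GRM) or a GABA receptor subunit (GABR) that was the nearest gene of at least 1 deposited H3K27me3 peak, at any distance. This gave 46 genes of 21981 autosomal genes with a peak. They comprised 41 receptor subunit genes, the antisense RNA genes GRID1-AS1, GRIK1-AS1, GRIK1-AS2 and GRM5-AS1, and GRID2IP, which encodes the synaptic scaffold protein delphilin. All 46 are counted as receptor genes below. A further 4 names that match lie on chromosome X and were left out.

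H3K27me3 was profiled by ChIP-seq in T24, an established human bladder cancer cell line. Cells had been cultured for 72 h with 5 µM GSK-126, an inhibitor of the methyltransferase EZH2, with 5 µM fenretinide, a synthetic retinoid, with the combination of both at 5 µM each, or with DMSO as vehicle. All conditions shared the fixation, 10 min in 1% formaldehyde. Each condition is represented by 1 library, so no difference has a replicate check and no p-value was computed. The series also lists 4 inputs and 4 RNA-seq libraries, not analysed here, so neither local input signal nor transcription stands beside the values.

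Polycomb repressive complex 2, whose catalytic subunit is EZH2, deposits H3K27me3, and the mark covers many genes of neural development and synaptic transmission in cells that do not use them. NMDA, AMPA, kainate and delta receptors are tetrameric cation channels or close relatives of them, metabotropic receptors signal through G proteins, and GABA-A receptors are chloride channels whose subunit genes lie mostly in clusters. Synaptic genes of this kind are not typical products of urothelium, and what the receptors do in bladder cancer cells is not addressed by these files.

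Values are sequenced fragments in the intervals that the authors counted, each interval being a merged stretch of peaks from the 4 libraries. The libraries compared thus help to decide which intervals exist. Counts of called intervals use the same fragments as the value of their gene and are not independent of it. The libraries held 16156194 (GSK-126), 18928836 (fenretinide), 15812933 (combination) and 17133107 (vehicle) fragments in intervals. A ratio is the share of all interval fragments that a gene holds in a treated library over that share in the other library, with a 95% exact Clopper-Pearson interval in square brackets that covers counting error only and compares libraries, not conditions. Calls needed a 2-fold difference: higher means a ratio of 2 or more and lower a ratio of 0.5 or less. A call also needed a counting interval that excludes 1 and 50 or more fragments over both libraries. No spike-in is named in the labels, so a change in share need not be a change in amount, and fewer marked cells cannot be told apart from less mark per cell.

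The receptor genes held 1516 intervals covering 8.87 Mb. These took 0.76% (GSK-126), 0.682% (fenretinide), 0.736% (combination) and 0.651% (vehicle) of interval fragments. Their peaks numbered 1295 with GSK-126, 1280 with fenretinide, 1601 with the combination and 1094 with vehicle, and covered 4916 kb, 4106 kb, 5113 kb and 3612 kb in that order of libraries. Of all autosomal peaks, the receptor genes held 0.638% (GSK-126), 0.58% (fenretinide), 0.628% (combination) and 0.545% (vehicle). Every treated library therefore gave them a larger share of fragments and of peaks than vehicle did. A single interval of 274 kb, assigned to GRM6 and to zinc-finger genes, held 14180 of their 122751 fragments with GSK-126. It held 4059 of 129117 with fenretinide, 11087 of 116382 with the combination and 3061 of 111611 with vehicle. Part of the larger fragment share with GSK-126 and with the combination thus came from this shared interval. GRM5-AS1 held only 13 fragments with GSK-126 and 13 with vehicle and was not measured, which leaves 45 genes.

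Promoters give the first view of how unlike these genes were. The windows shown run from 250 bases before to 50 bases after a RefSeq transcription start site (TSS) on GRCh38.p14, 5′ to 3′ on the gene's strand, with each CG dinucleotide, the site of DNA methylation, in capitals. The first 3 lie in intervals that held a smaller share with GSK-126 than with vehicle, and the last 3 in intervals that held a larger share.
GRIN2D: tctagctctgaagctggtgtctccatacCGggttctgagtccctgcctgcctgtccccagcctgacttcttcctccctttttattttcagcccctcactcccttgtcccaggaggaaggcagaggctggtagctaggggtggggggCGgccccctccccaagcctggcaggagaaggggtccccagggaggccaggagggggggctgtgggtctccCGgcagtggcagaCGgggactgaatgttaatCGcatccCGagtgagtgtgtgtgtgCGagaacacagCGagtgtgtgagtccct
GRIA1: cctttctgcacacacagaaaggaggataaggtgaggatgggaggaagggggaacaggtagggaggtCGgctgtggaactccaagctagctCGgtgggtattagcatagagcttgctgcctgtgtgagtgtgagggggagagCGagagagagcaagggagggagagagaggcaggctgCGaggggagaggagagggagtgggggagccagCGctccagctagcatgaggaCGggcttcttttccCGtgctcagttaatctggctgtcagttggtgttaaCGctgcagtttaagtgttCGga
GRIN3B: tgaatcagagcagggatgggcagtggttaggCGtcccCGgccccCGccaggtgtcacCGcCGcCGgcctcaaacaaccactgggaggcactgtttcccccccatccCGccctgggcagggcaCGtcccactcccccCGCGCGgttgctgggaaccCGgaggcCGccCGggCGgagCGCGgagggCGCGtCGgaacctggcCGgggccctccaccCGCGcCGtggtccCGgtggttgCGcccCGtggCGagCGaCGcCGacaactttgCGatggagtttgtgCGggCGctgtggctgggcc
GRM7: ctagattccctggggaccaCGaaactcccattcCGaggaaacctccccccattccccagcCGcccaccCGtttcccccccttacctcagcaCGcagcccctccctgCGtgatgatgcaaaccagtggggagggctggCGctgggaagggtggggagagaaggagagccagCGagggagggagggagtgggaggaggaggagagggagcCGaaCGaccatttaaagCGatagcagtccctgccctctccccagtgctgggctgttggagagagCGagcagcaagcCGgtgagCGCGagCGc
GABRA2: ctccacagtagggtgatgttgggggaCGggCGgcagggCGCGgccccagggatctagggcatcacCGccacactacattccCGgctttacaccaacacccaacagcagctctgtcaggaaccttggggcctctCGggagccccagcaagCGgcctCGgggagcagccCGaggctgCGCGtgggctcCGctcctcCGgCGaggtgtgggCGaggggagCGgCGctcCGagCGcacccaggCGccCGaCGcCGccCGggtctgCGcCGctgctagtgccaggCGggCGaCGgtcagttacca
GRIN3A: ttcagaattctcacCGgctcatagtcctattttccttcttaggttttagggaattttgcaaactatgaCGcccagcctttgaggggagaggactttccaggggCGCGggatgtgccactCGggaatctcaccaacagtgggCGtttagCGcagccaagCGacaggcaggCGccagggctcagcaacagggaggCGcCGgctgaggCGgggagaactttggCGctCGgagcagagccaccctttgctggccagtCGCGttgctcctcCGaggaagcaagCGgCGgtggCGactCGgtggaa
The GRIN2D window, at chr19:48393418-48393717 on the plus strand, holds 8 CG dinucleotides, and its interval had a ratio of 0.238. The GRIA1 window (chr5:153490420-153490719, plus strand) holds 9 with a ratio of 0.236, and the GRIN3B window (chr19:1000169-1000468, plus strand) holds 34 with a ratio of 0.348. Among those with a larger share, the GRM7 window (chr3:6860865-6861164, plus strand) holds 16 with a ratio of 3.21. The GABRA2 window (chr4:46390251-46390550, minus strand) holds 30 with a ratio of 2.7, and the GRIN3A window (chr9:101738598-101738897, minus strand) holds 21 with a ratio of 2.03. The window richest in CG among the 6 was thus on the lower side, beside the 2 poorest.

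RefSeq gave 53 such windows for 35 of the 46 genes, of which 43 overlapped an interval. The receptor windows held between 0 and 49 CG dinucleotides with a median of 11, against a median of 14 over 33725 autosomal windows, and 17 of 53 held at least 20, against 41.4% of all windows. Over 34 measured receptor genes with a window, the CG count of the first window and the log2 ratio of GSK-126 over vehicle had a Spearman rho of -0.06, beside -0.08 over 10218 genes. These genes share both libraries, and the correlations are a description. The motif AGGTCA, a core element bound by retinoid receptors, was found on either strand in 1 of 53 receptor windows, a GRM8 window, and in 13.8% of all windows. A direct repeat of AGGTCA with 5 bases between the copies was in none of the 53 and in 0.00593% of all windows.

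With GSK-126, as many receptor genes were called higher as lower. Of 45 measured genes, 10 were called higher than vehicle, 10 lower and 25 neither. The lower genes include the scaffold gene GRID2IP. Glutamate receptor subunit genes alone gave 6 higher and 7 lower of 25, and GABA receptor subunit genes 4 and 2 of 16. Across all 19211 measured genes, 15.9% were called higher and 30.2% lower, so calls in both directions together were about as frequent as among genes in general. The median log2 ratio was 0.01 for the receptor genes and -0.50 for all genes, and receptor ratios ran between 0.238 for GRIN2D and 4.91 for GRM6. Background scaling, which sets the libraries equal over the 25% of intervals that are least dense, shifts every log2 ratio of GSK-126 over vehicle by -0.77. It gave 2 higher (GABRG1 and GRM6) and 19 lower, beside 9.31% and 59.3% of all genes.

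**Figure D1:**
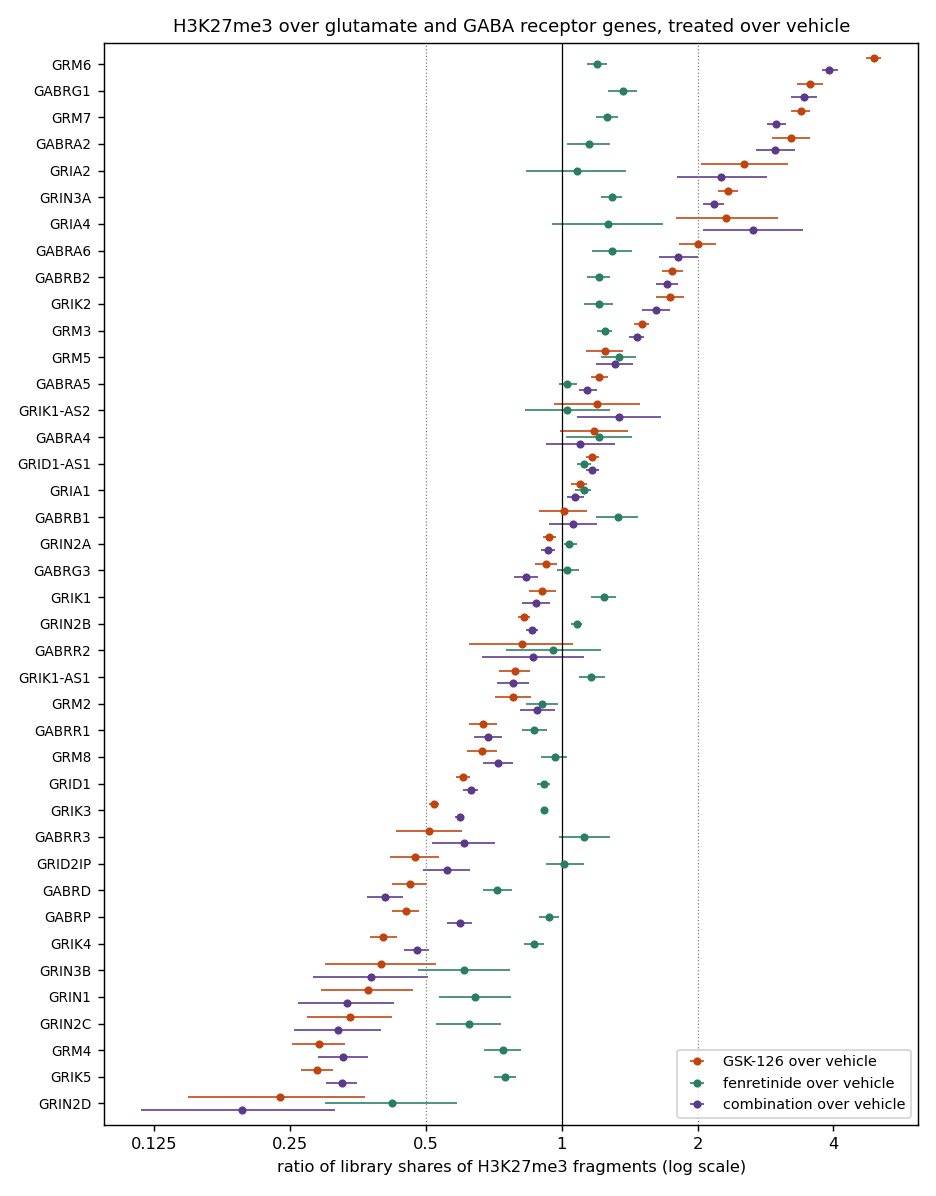
Ratio of library shares of H3K27me3 fragments (log scale) for 40 of the measured receptor genes, ordered by GSK-126 over vehicle, with points for GSK-126, fenretinide and the combination over vehicle and bars for the 95% counting interval. Dotted lines mark 0.5 and 2. GSK-126 and combination points span 0.196 to 4.91, whereas fenretinide points stay between 0.421 and 1.37.

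NMDA receptors need the glycine-binding subunit of GRIN1 together with GRIN2 or GRIN3 subunits, and 4 of their 7 genes were called lower and 1 higher with GSK-126. Over all genes 30.2% were called lower and 15.9% higher. Neither this family nor those below, each of few genes, was tested against these shares. GRIN1 (chr9:137139154-137168756) held 101 fragments with GSK-126, 205 with fenretinide, 89 with the combination and 288 with vehicle, a ratio of 0.372 [0.293 to 0.468] for GSK-126 over vehicle. GRIN2C (chr17:74842023-74861532), a glutamate-binding subunit gene, held 114, 245, 105 and 356 fragments in the same order of libraries, with a ratio of 0.34 [0.273 to 0.42]. Vehicle was highest and the libraries with GSK-126 lowest in both genes, and neither gene was called in the combination over GSK-126. GRIN2D (chr19:48393668-48444931), another glutamate-binding subunit gene, held 26 fragments with GSK-126, 54 with fenretinide, 21 with the combination and 116 with vehicle, all in an interval of 5.57 kb at its start that is also assigned to LOC102724003. Its ratio of 0.238 [0.149 to 0.366] was the lowest among the measured receptor genes. GRIN3B (chr19:1000419-1009732), a glycine-binding subunit gene, held 70, 125, 65 and 186 fragments in the same order, with a ratio of 0.399 [0.299 to 0.528].

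GRIN2A and GRIN2B are glutamate-binding subunit genes of adult and developing brain. GRIN2A carried the mark over 8 intervals that sum to 455 kb, and GRIN2B over 15 that sum to 542 kb. Both were called neither way, at 0.939 [0.908 to 0.971] and 0.827 [0.802 to 0.851]. GRIN3A (chr9:101569352-101738647), the glycine-binding subunit gene of juvenile synapses, went the other way, with 4840 fragments with GSK-126, 3126 with fenretinide, 4405 with the combination and 2198 with vehicle. Its ratio was 2.34 [2.22 to 2.46]. This value came from outside the gene: intergenic intervals held 4279 fragments with GSK-126 and 1663 with vehicle, a ratio of 2.73, and intron intervals held 375 and 438, a ratio of 0.908. Summed over the RefSeq span of GRIN3A alone, the ratio was 0.985 [0.905 to 1.07].

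AMPA receptor genes, whose products carry fast excitatory transmission, gave 2 higher calls among 3. GRIA2 (chr4:157220120-157366075), whose subunit limits calcium entry, held 278 fragments with GSK-126, 138 with fenretinide, 242 with the combination and 116 with vehicle, a ratio of 2.54 [2.04 to 3.18]. GRIA4 held 192, 123, 215 and 88 in the same order, a ratio of 2.31 [1.79 to 3.01]. Both held more fragments in each treated library than in vehicle. As shares, fenretinide over vehicle was 1.08 [0.835 to 1.39] for GRIA2 and 1.27 [0.954 to 1.68] for GRIA4, and both counting intervals include 1. The 2 longest GRIA2 intervals, chr4:157175103-157180547 and chr4:157157404-157162186, lie before the gene. They held 113 and 74 fragments with GSK-126 and 45 and 23 with vehicle. The GRIA2 promoter interval held 34 with GSK-126 and 29 with vehicle, a ratio of 1.24 that was not called. GRIA1 (chr5:153489615-153813869) had a ratio of 1.10 [1.05 to 1.14] over 81 intervals, of which 44 held enough fragments to be measured singly (at least 20 in the 2 libraries), and 2 of these were called higher and 11 lower. Across all autosomal intervals, 24.9% of measured ones were called higher and 22.4% lower in this comparison. The GRIA1 promoter interval (chr5:153488955-153493827) held 14 fragments with GSK-126, 73 with fenretinide, 20 with the combination and 63 with vehicle, so it was low in both libraries with GSK-126.

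Kainate receptors pair GRIK1, GRIK2 or GRIK3 subunits with the high-affinity subunits GRIK4 and GRIK5. With GSK-126, both high-affinity genes were called lower and none of the 5 kainate genes higher. GRIK5 (chr19:41998324-42070206) held 732 fragments with GSK-126, 2237 with fenretinide, 812 with the combination and 2701 with vehicle, a ratio of 0.287 [0.264 to 0.312]. GRIK4 (chr11:120511748-120988906) held 1219, 3073, 1410 and 3205 in the same order, a ratio of 0.403 [0.377 to 0.431], and 8 of its 10 measured intervals were called lower. In both genes each library with GSK-126 held fewer fragments than each library without it. GRIK3 had a ratio of 0.521 [0.508 to 0.534] over 830 kb, of which 798 kb are shared with CSF3R and non-coding genes. GRIK1 stood at 0.906 and GRIK2 at 1.74. GRIK2 has 2 RefSeq start windows that differed: the interval over the upstream start (chr6:101386625-101395611) held 60 fragments with GSK-126 and 151 with vehicle, a ratio of 0.421, and the interval over the downstream start (chr6:101398057-101407234) held 118 and 71, a ratio of 1.76.

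Delta receptors bind cerebellin proteins at synapses rather than glutamate. GRID1 was not called, at 0.605 [0.583 to 0.628], and 244 of its 319 kb are shared with MIR346, a microRNA gene inside it. GRID2IP, the scaffold gene, held 363 fragments with GSK-126, 912 with fenretinide, 418 with the combination and 814 with vehicle, a ratio of 0.473 [0.417 to 0.536].

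**Figure D2:**
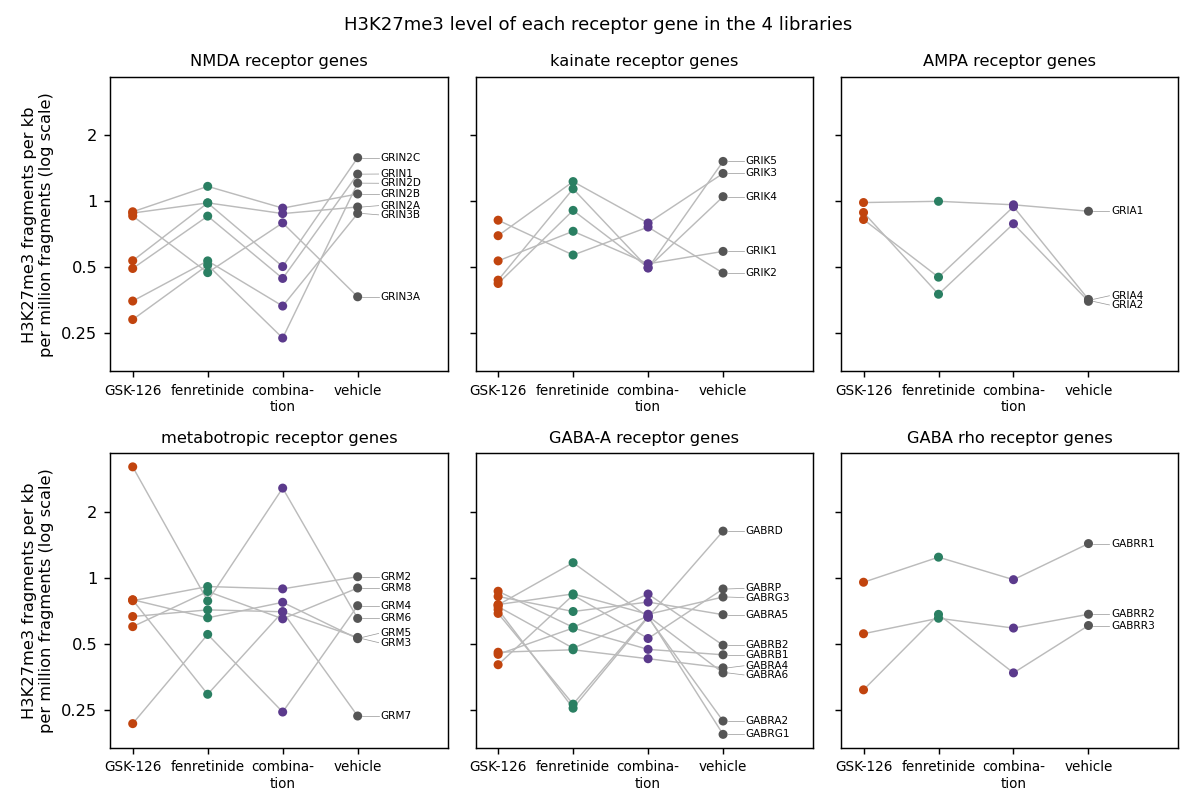
H3K27me3 fragments per kb of interval, scaled to the same library total (log scale) for receptor genes, by library, with vehicle at the right of each panel and lines joining the values of a gene. GRIN1, GRIN2C, GRIN2D, GRIK4 and GRIK5 lie lower with GSK-126 and the combination than with vehicle, and GRIA2, GRIA4, GRM7, GABRA2 and GABRG1 lie higher. Delta receptor genes are not plotted.

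Metabotropic receptors divide into group I, with GRM5, which raises calcium through phospholipase C, and groups II (GRM2, GRM3) and III (GRM4, GRM6, GRM7, GRM8), which lower cyclic AMP. Of the 8 genes, 2 were called higher and 1 lower, all of group III. GRM7 (chr3:6861115-7741533), a presynaptic receptor gene, held 6991 fragments with GSK-126, 3041 with fenretinide, 6047 with the combination and 2190 with vehicle, a ratio of 3.39 [3.23 to 3.55]. Of its 53 measured intervals 49 were called higher and none lower, and its promoter, intron and intergenic ratios were 3.21, 3.39 and 3.26. GRM4 (chr6:34018643-34155622), also presynaptic, held 278, 832, 308 and 1018 fragments in the same order, a ratio of 0.29 [0.253 to 0.331], with 7 of 9 measured intervals lower. Most measured intervals of GRM7 were thus called higher and most of GRM4 lower, although 14 and 7 of their intervals held too few fragments. Peaks of GRM7 covered 40.3 kb with vehicle and 425 kb with GSK-126, and peaks of GRM4 67.7 kb and 4.82 kb. The intervals of both genes were therefore largely set by 1 side of the comparison, and their counts are no separate check of the gene values.

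GRM6, the receptor gene of retinal ON bipolar cells, had the highest ratio, 4.91 [4.72 to 5.11], and it rests on an interval that is not its own. Its 14180 fragments with GSK-126, 4059 with fenretinide, 11087 with the combination and 3061 with vehicle lie in an interval of 274 kb (chr5:178867343-179141234) that also holds the zinc-finger genes ZFP2, ZNF354B, ZNF354C, ZNF454 and ZNF879. The GRM6 gene spans 17 kb of it. With intervals shared with other genes left out, GRM6 had no value. The remaining metabotropic genes were called neither way, between 0.666 for GRM8 and 1.51 for GRM3.

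GABA-A receptor genes gave 4 higher and 2 lower calls among 13, and 2 neighbours on chromosome 4 had the highest ratios. GABRG1, a gamma subunit gene at the start of the cluster there (chr4:46035769-47426447), was assigned 3990 fragments with GSK-126, 1802 with fenretinide, 3791 with the combination and 1191 with vehicle, a ratio of 3.55 [3.33 to 3.79]. Most of them lie far from the gene: intervals over 100 kb from its TSS held 3333 fragments with GSK-126 and 969 with vehicle, a ratio of 3.65, and the longest, chr4:45527015-45542534, lies before the cluster. Its introns held 140 and 71, a ratio of 2.09, and intervals within 10 kb of its TSS held 16 and 15, too few to measure. Its neighbour GABRA2, an alpha subunit gene, held 1716 fragments with GSK-126, 716 with fenretinide, 1551 with the combination and 565 with vehicle, a ratio of 3.22 [2.93 to 3.55]. At the other end, GABRA4 held 281, 338, 257 and 253 in the same order, a ratio of 1.18 [0.99 to 1.4], and GABRB1 held 521, 804, 537 and 549, a ratio of 1.01 [0.891 to 1.14]. Counted singly, 55 of 68 measured GABRG1 intervals and 21 of 28 GABRA2 intervals were higher and none lower. For GABRA4 3 of 13 were higher and for GABRB1 2 of 12, where 24.9% of all measured autosomal intervals were. These counts reuse the fragments of the gene values and are no separate check of them. Peaks covered 24.5 kb with vehicle and 214 kb with GSK-126 for GABRG1, and 14.2 kb and 86.6 kb for GABRA2. The intervals of these 2 genes were therefore largely set by the libraries with GSK-126.

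Other subunit genes had smaller differences. GABRA6, the alpha subunit gene of cerebellar granule cells, held 1248 fragments with GSK-126, 945 with fenretinide, 1106 with the combination and 661 with vehicle, a ratio of 2.0 [1.82 to 2.2] that sits at the threshold. GABRB2, a beta subunit gene, held 3558, 2859, 3382 and 2141 fragments in the same order, a ratio of 1.76 [1.67 to 1.86]. Both genes were lowest in vehicle and highest with GSK-126. GABRA5, an alpha subunit gene, held 3647, 3647, 3363 and 3192, a ratio of 1.21 [1.16 to 1.27], and GABRG3, a gamma subunit gene, held 2174, 2848, 1924 and 2498, a ratio of 0.923 [0.871 to 0.978]. Over all intervals of the cluster on chromosome 4, which cover 583 of its 1391 kb, the ratio was 1.94 [1.85 to 2.02].

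**Figure D3:**
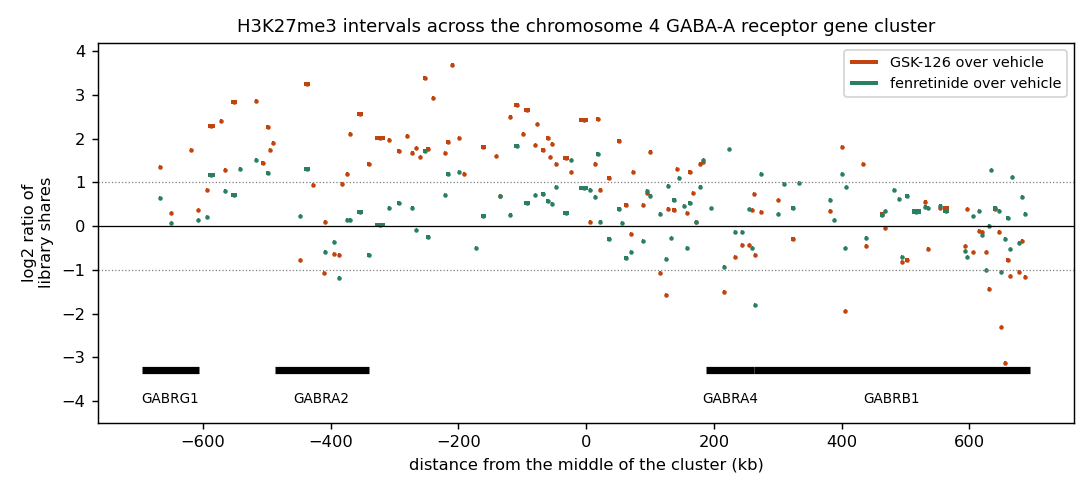
Log2 ratio of library shares for each interval with at least 20 fragments, for GSK-126 and for fenretinide over vehicle, against the distance in kb from the middle of the GABA-A receptor gene cluster on chromosome 4; black bars are genes and dotted lines mark 2-fold. With GSK-126, 57 of 121 intervals were called higher, most of them between GABRG1 and GABRA4.

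GABRD, the delta subunit gene of receptors outside synapses, held 715 fragments with GSK-126, 1310 with fenretinide, 617 with the combination and 1645 with vehicle, a ratio of 0.461 [0.422 to 0.504]. Of its 58.9 kb, 49 kb are an interval shared with KIAA1751. Of its 3 measured intervals, that one was called lower and the other 2 were called higher. GABRP, the pi subunit gene known from epithelial tissues, held 1207, 2936, 1554 and 2834 fragments in the same order, a ratio of 0.452 [0.422 to 0.483], with 13 of 19 measured intervals lower. Most peaks assigned to GABRP lie in introns of its neighbour KCNIP1. The rho subunit genes of the retina, GABRR1, GABRR2 and GABRR3, had ratios of 0.669, 0.815 and 0.509, and none was called.

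Promoter and intron intervals were then summed apart. A promoter peak was present for 24 receptor genes, of which 21 held enough fragments. With GSK-126, 4 of these 21 promoter values were higher and 9 lower than vehicle, beside 8.23% higher and 40.6% lower over all genes with a promoter value. Intron intervals gave 6 higher and 11 lower of 45, beside 19.9% and 32.4%, and intergenic intervals gave 14 higher and 4 lower of 37, beside 13.2% and 31.3%. The median log2 ratios of the receptor genes were -0.55 at promoters, -0.25 in introns and 0.40 between genes, against -0.79, -0.53 and -0.54 over all genes. Exon or transcript-end intervals gave 3 higher and 5 lower of 21, beside 10.2% and 38.7%. With background scaling the promoter calls were 1 higher and 13 lower, beside 3.93% and 70.6%, and the intron calls 1 higher and 23 lower, beside 14.0% and 59.8%.

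Promoter and intron values are seldom independent here. For 18 of the 21 genes the promoter interval also held an intron peak, and only GABRA2, GRIA1 and GRIN3A had them apart. In addition, 397 of 2696 intron peaks of these genes lie in an intron of another gene. For GRIA1 the promoter ratio was 0.236 [0.122 to 0.425] and the intron ratio 0.781 [0.706 to 0.863]. For GRIN3A the promoter, with 186 fragments with GSK-126, 88 with fenretinide, 158 with the combination and 97 with vehicle, gave 2.03 [1.58 to 2.63]. For GABRA2 the promoter held 84, 23, 75 and 33 fragments in the same order and gave 2.70 [1.78 to 4.17], and the introns gave 2.44 [2.04 to 2.92].

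Promoter intervals lower with GSK-126 included that of GABRR3, which the gene sum did not call. GABRR3 held 47 fragments with GSK-126, 136 with fenretinide, 47 with the combination and 121 with vehicle at chr3:98028541-98038138, a ratio of 0.412 [0.288 to 0.581]. GRM4 had 37, 120, 38 and 168 fragments in the same order at an internal promoter (chr6:34057581-34070433), a ratio of 0.234 [0.159 to 0.335]. GRIK5 had 45, 98, 48 and 187 (chr19:42063823-42072857), a ratio of 0.255 [0.18 to 0.355]. These 2 promoters were low in both libraries with GSK-126 and intermediate with fenretinide.

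Several lower promoters belong to NMDA subunits. Lower promoter values were about as frequent among the receptor genes, at 42.9%, as over all genes, at 40.6%. Promoters of NMDA subunits were not tested against that share. GRIN1 had 89 fragments with GSK-126, 150 with fenretinide, 81 with the combination and 257 with vehicle at its promoter, a ratio of 0.367 [0.285 to 0.469]. GRIN2C had 107, 245, 105 and 354, a ratio of 0.321 [0.256 to 0.399], and GRIN3B had 60, 123, 53 and 183, a ratio of 0.348 [0.255 to 0.468]. GRIN2A, with 1161, 2048, 1196 and 1957, was not called at 0.629 [0.585 to 0.677]. In these 4 genes each library with GSK-126 held less than each library without it. The GABRD promoter interval, with 493, 1279, 483 and 1626, gave 0.322 [0.29 to 0.356].

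Higher promoters were those of GRM7, GABRA2, GRIN3A and GRM6, the last in its shared interval. GRM7 had 297 fragments with GSK-126, 82 with fenretinide, 218 with the combination and 98 with vehicle at chr3:6852031-6865861. GABRA4, with 134, 97, 113 and 72 over 4 intervals that include the COX7B2 promoter, stayed under the threshold at 1.97 [1.47 to 2.67]. The intervals at its own promoter held 26 with GSK-126 and 27 with vehicle, a ratio of 1.02 [0.573 to 1.82]. GABRA6 (64, 87, 44 and 51), GRIA2 (34, 23, 27 and 29), GRM3 (99, 158, 97 and 141), GRID1-AS1 (243, 321, 237 and 315) and GRIK1-AS1 (271, 511, 280 and 422) were called neither way. Their ratios lay between 0.681 for GRIK1-AS1 and 1.33 for GABRA6. GABRG1 (11, 11, 13 and 9) and GRM2 (3, 3, 5 and 6) had too few promoter fragments.

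**Figure D4:**
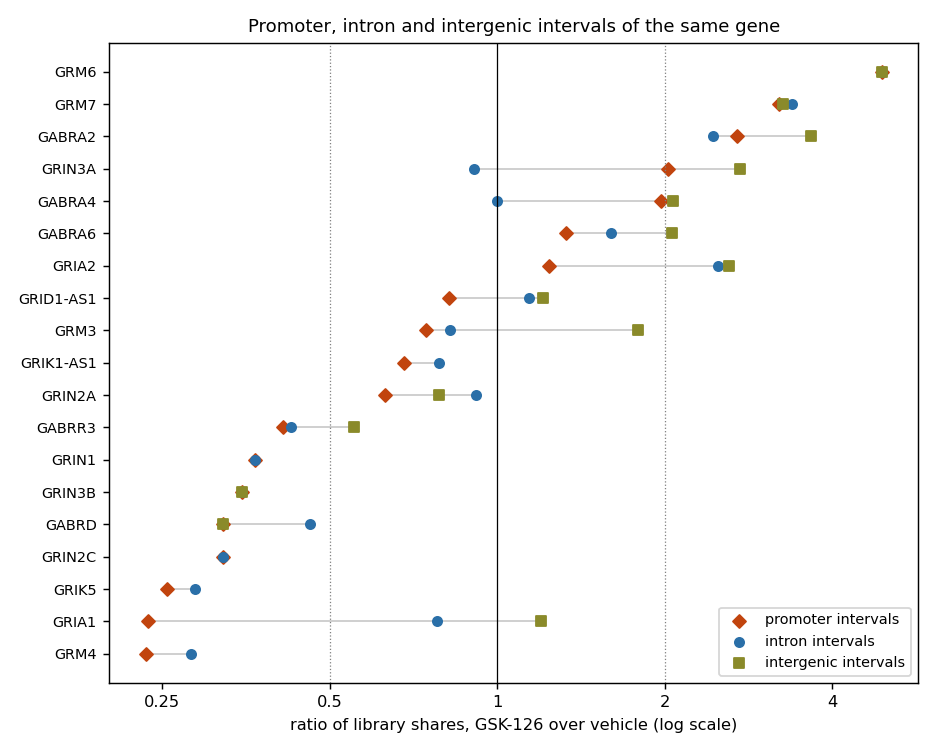
Ratio of library shares, GSK-126 over vehicle (log scale), of promoter, intron and intergenic intervals for 19 receptor genes with a measured promoter value, ordered by it; a gray line joins the values of a gene. GRIA1 has a promoter ratio of 0.236 with an intergenic ratio of 1.20, and symbols that coincide are often the same interval.

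Distance from the TSS separated the calls. Within 10 kb, 5 of 42 measured genes were higher and 11 lower with GSK-126, beside 11.1% and 42.1% of all genes. Between 10 and 100 kb, 8 of 40 were higher and 7 lower, beside 16.1% and 27.6%, and beyond 100 kb, 9 of 24 were higher and 3 lower, beside 25.5% and 8.39%. All genes therefore also gave more higher calls with distance. For 7 receptor genes whose promoter and intergenic intervals are apart, the promoter ratio was below the intergenic ratio in all 7, among them GABRA2, GABRA4, GABRA6, GRIA1, GRIA2 and GRIN3A. The same held for 65.3% of 737 genes of the whole table.

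**Figure D5:**
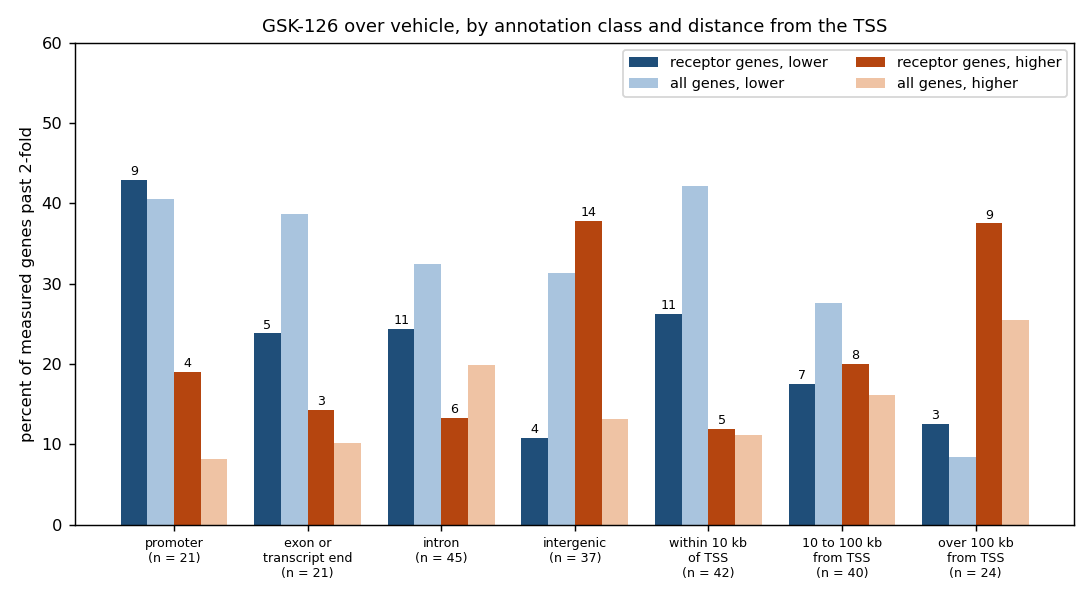
Percent of measured genes past 2-fold in GSK-126 over vehicle, by annotation class and by distance from the TSS, for receptor genes (dark bars, with the number of genes above) and all autosomal genes (light bars). Lower calls prevail at promoters and within 10 kb, and higher calls prevail in intergenic intervals and beyond 100 kb for the receptor genes.

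Read singly, 324 of 872 measured receptor intervals were higher with GSK-126 and 92 lower, or 37.2% and 10.6%. The shares were 24.9% and 22.4% over all autosomal intervals. The median log2 ratio was 0.59 over these intervals and -0.05 over all autosomal intervals. Genes with many separate intervals weigh most here, as GRM3 has 179 and GABRG1 144. With fenretinide 43 of 849 receptor intervals were higher and 9 lower, beside 3.21% and 2.22%, and with the combination 303 of 866 were higher and 64 lower, beside 23.0% and 16.4%. The 10 genes called lower had 3.49 to 12.1 fragments per kb with GSK-126 and 12.8 to 27.9 with vehicle. The 10 called higher had 10.2 to 51.8 with GSK-126 and 3.31 to 11.2 with vehicle, and since vehicle is the denominator of the ratio that chose both sets, nothing is read from these ranges. Over the 45 genes, the level in the fenretinide library had a Spearman rho of -0.60 with the log2 ratio of GSK-126 over vehicle. The rho was -0.50 over 19211 genes. The fenretinide library enters neither side of the ratio, but it lay near vehicle for most genes. The interval lengths behind its level also include peaks of the GSK-126 library, so the level is not independent of the ratio. The number of intervals had a rho of 0.61, beside 0.25, and gene length 0.28, beside 0.12 over 14753 genes. Intervals merge peaks of all 4 libraries, so their number is partly set by the GSK-126 library, the numerator of the ratio, and nothing is read from it. All points share these libraries, and low-density genes also have wider counting error.

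Fenretinide alone left the receptor genes near vehicle. None of 45 was called higher and 1 lower, beside 0.457% and 0.807% of all genes, and the median log2 ratio was 0.12 against -0.11. GRIN2D was the gene called, with 54 fragments with fenretinide and 116 with vehicle, a ratio of 0.421 [0.299 to 0.587]. All of them lie in its interval of 5.57 kb shared with LOC102724003. The GRIN2D call was lost when shared intervals were left out or with a minimum of 200 fragments. The next lowest were GRIN3B at 0.608, GRIN2C at 0.623, GRIN1 at 0.644 and GABRD at 0.721. The sums of these genes were also called lower with GSK-126. GABRG1 at 1.37 and GRM5 at 1.34 were the highest. The comparisons with fenretinide and with GSK-126 share the vehicle library, so these values are set side by side only.

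At promoters, fenretinide gave none higher and 1 lower of 21, beside 0.287% and 2.75%. That promoter was GRIK5, with 98 fragments with fenretinide and 187 with vehicle, a ratio of 0.474. In introns none was higher and 1 lower (GRIN2D, in the same interval as its gene sum), beside 1.25% and 1.20%. Between genes 1 of 35 was higher and none lower, beside 0.213% and 0.508%. This was GABRA4, with 65 fragments with fenretinide and 19 with vehicle, a ratio of 3.10.

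The combination gave nearly as many calls against vehicle as GSK-126 did. Of 45 genes, 9 were called higher and 8 lower than vehicle, beside 14.3% and 22.7% of all genes, and the median log2 ratio was 0.08 against -0.40. Background scaling, which shifts these log2 ratios by -0.81, gave 1 higher and 19 lower, beside 7.51% and 59.2%. Highest were GRM6 at 3.92, GABRG1 at 3.45, GRM7 at 2.99 and GABRA2 at 2.97, and lowest were GRIN2D at 0.196, GRIN2C at 0.32, GRIK5 at 0.326 and GRM4 at 0.328. Promoters gave 3 higher and 8 lower of 21, beside 6.31% and 32.5%, and introns 7 higher and 11 lower of 45, beside 18.2% and 24.3%. With background scaling the promoters gave 1 and 13, beside 2.35% and 72.0%, and the introns 1 and 22, beside 12.0% and 59.7%. Intergenic intervals gave 11 higher and 4 lower of 37, beside 11.8% and 23.0%. GABRP, called lower with GSK-126, stood at 0.594 with the combination.

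Set against GSK-126 alone, the combination gave no called gene among 44 measured, where 0.291% of all genes were higher and 0.354% lower. The ratios lay between 0.799 [0.779 to 0.819] for GRM6 and 1.32 [1.22 to 1.42] for GABRP. Set against fenretinide alone, 6 genes were higher and 3 lower of 45, beside 13.2% and 11.3%, and background scaling gave 1 higher and 19 lower, beside 6.70% and 48.8%. The higher genes were GRM6 (3.27), GABRA2 (2.59), GABRG1 (2.52), GRM7 (2.38), GRIA2 (2.1) and GRIA4 (2.09). The lower genes were GRIK5 (0.435), GRM4 (0.443) and GRIN2D (0.466). The combination library enters 3 of these comparisons, which are therefore not independent.

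Other genes of glutamate and GABA signalling were read from a list of 66 transporters, enzymes, GABA-B receptors, auxiliary subunits and scaffolds, of which 53 were measured. With GSK-126, 4 were higher and 18 lower than vehicle, beside 15.9% and 30.2% of all genes, and their median log2 ratio was -0.83, against 0.01 for the receptor genes and -0.50 for all genes. GPHN, which encodes the gephyrin scaffold of inhibitory synapses, held 1637 fragments with GSK-126 and 143 with vehicle, a ratio of 12.1 [10.2 to 14.5]. DLGAP1, a scaffold gene of excitatory synapses, held 265 and 43, a ratio of 6.54, and GLS2, a glutaminase gene, held 152 and 67, a ratio of 2.41.

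On the lower side, SHANK1, a postsynaptic scaffold gene, held 30 fragments with GSK-126 and 147 with vehicle, a ratio of 0.216 [0.141 to 0.322]. GABBR1, a GABA-B receptor gene, held 52 and 241, a ratio of 0.229, and SLC17A7, which encodes a vesicular glutamate transporter, held 210 and 761, a ratio of 0.293. By list, glutamate transport and vesicle genes gave 0 higher and 4 lower of 9, and GABA synthesis, transport and breakdown genes 0 and 4 of 8. Auxiliary subunits gave 0 and 2 of 11, scaffolds 3 and 5 of 18, glutamate metabolism 1 and 2 of 5, and GABA-B receptors 0 and 1 of 2. With fenretinide, SLC17A7 was the list gene called, lower at 0.497, beside 0.807% of all genes. With the combination 3 were higher and 12 lower of 54, beside 14.3% and 22.7%.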

How the data were processed

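H3K27me3 ChIP-seq in T24 cells was analysed from raw fragment counts over 273664 consensus intervals, deposited by the authors. Per the file headers, featureCounts 2.0.1 counted pairs regardless of strand, with an overlap fraction of 0.2 or more, and assigned a fragment to all intervals it touched. The authors also deposited broad peaks called separately in each library, with a peak score whose scale is not stated and whose lowest value is 10. MACS2 2.1.0 is named in the submitters' processing notes, and HOMER annotation in the file headers. The build was GRCh38, per the submitters' processing notes; the aligner and the control for peak calling were not given in the sources used here. Interval starts in the table lie 1 base before the first base of their peaks, and coordinates are printed 1-based.

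The members and lists were chosen with earlier results of these data known. A gene's value sums the intervals that hold a peak whose nearest TSS is that gene, and an interval assigned to several genes counts for each. Of 1516 intervals, 32 were shared with another gene and 2 among receptor genes. Promoter, intron and other values sum the intervals that hold a peak of that annotation class. Log2 ratios used a pseudocount of 0.5. The comparisons were each treated library over vehicle and the combination over each compound, 5 in all. Named were receptor genes with a promoter peak, the 5 highest and 5 lowest ratios, genes called with fenretinide or in the combination over GSK-126, the GABA-A cluster genes, and up to 3 list genes in each direction; the other receptor genes were named after their values were seen. Results for some of these genes are not reported here, and they stay in the counts. All 46 genes matched a RefSeq symbol. The calling rule was tested on simulated counts. Alternatives were TMM (edgeR 4.0.16), DESeq2 1.42.0 size factors, background scaling (the 25% of intervals with the lowest density), other minimums, thresholds, peaks and gene assignments. Software was R 4.3.3 and Python 3.11.15 with scipy 1.17.1 and pandas 2.3.3; matplotlib 3.10.9 drew the plots.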

Additional observations from a re-analysis of the deposited data

Results flagged for a closer look

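For 11 of the genes reported here, the ratio of fenretinide over vehicle and that of the combination over GSK-126 lay on opposite sides of 1, with both counting intervals excluding 1. The same held for 13 of all 44 receptor genes measured and for 21.6% of 17909 genes, whose median log2 ratios were -0.11 for fenretinide over vehicle and 0.07 for the combination over GSK-126. With TMM, DESeq2 or background scaling, GABRA2, GRIK5 and GRM2 no longer met it. In the presence of GSK-126 fenretinide gave ratios below 1 for GRM6 (0.799, against 1.20 without GSK-126), GRM7 (0.884, against 1.26), GABRA6 (0.905, against 1.29), GABRA2 (0.923, against 1.15), GRIN3A (0.93, against 1.29) and GRIK2 (0.93, against 1.21). It gave ratios above 1 for GABRP (1.32, against 0.938), GRIK4 (1.18, against 0.868), GRIK3 (1.14, against 0.916), GRIK5 (1.13, against 0.75) and GRM2 (1.13, against 0.905). GRIA1 did the same for GSK-126, with 0.96 over fenretinide in its presence and 1.10 over vehicle, beside 0.801% of all genes, and no longer did so with background scaling. None of these values reached the 2-fold threshold, each rests on 1 library per condition, and the differences were not tested.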

How the results depend on the processing

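No paired analysis was possible because each condition had 1 library. Of 198 alternative counts, 159 stayed within 1.5 times of the reported count and 39 did not; the cause was not tested. Background scaling shifts log2 ratios by -0.77 (GSK-126 over vehicle), -0.13 (fenretinide over vehicle), -0.81 (combination over vehicle) and -0.68 (combination over fenretinide), where TMM and DESeq2 shift none by more than 0.16. It gave 2 higher and 19 lower with GSK-126, 1 and 19 with the combination over vehicle, and 1 and 19 with the combination over fenretinide. At promoters it gave 1 higher with GSK-126, 1 higher and 13 lower with the combination, and 2 lower with fenretinide. In introns it gave 1 higher and 23 lower, 1 higher and 22 lower, and 2 lower in the same order of libraries. TMM and DESeq2 scaling each gave 2 lower promoters and 2 lower introns with fenretinide. A ratio of 1.5 gave 4 lower genes with fenretinide, 14 higher and 13 lower with the combination over vehicle, and 10 higher and 12 lower over fenretinide. It also gave 2 higher and 6 lower promoters and 4 lower introns with fenretinide, 5 higher promoters with the combination and 11 higher introns with GSK-126. Peaks within 10 kb of the TSS gave 5 higher with GSK-126, 4 higher with the combination, and 3 higher and 5 lower over fenretinide. RefSeq gene spans gave 6 higher with GSK-126. No minimum added 1 gene higher in the combination over GSK-126 and gave 2 lower introns with fenretinide. A minimum of 200 fragments, or leaving out shared intervals, left 0 lower with fenretinide. Counting promoter and intron peaks only in the gene's own annotation, an alternative chosen after seeing the data, kept every such count within 1.5 times. The number of receptor genes with ratios of a compound on opposite sides of 1, also rescaled after seeing the data, was 12 to 15 for fenretinide and 1 to 2 for GSK-126.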
